A study of Saccharomyces cerevisiae with 4 samples.

Results

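*CWP1* (YKL096W), *CWP2* (YKL096W-A), *SED1* (YDR077W) and *SPI1* (YER150W) encode major mannoproteins of the yeast cell wall that are held there by a GPI anchor. The 4 genes were chosen by ORF name, out of 6172 genes with a row in the table. *CWP2* was found under its older ORF name, which the RefSeq gene table (assembly R64) lists as a synonym of YKL096W-A, and the other 3 were found under their own names. All 4 genes had a value on every array and belonged to the 3299 genes that were tested.

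The arrays compared *Saccharomyces cerevisiae* of the BY4741 background, *mid2* mutant, exposed to zymolyase for 3 h at 0.8 units per ml, with untreated *mid2* mutant cells of the same cultures, grown in YEPD at 24 °C. BY4741 is a laboratory strain with deletions in several nutritional marker genes, and both groups carried them. Zymolyase breaks down wall glucan, and Mid2 is a plasma membrane sensor that reports wall damage to the cell wall integrity pathway. There were 4 two-colour arrays from 2 cultures, each culture hybridised in both dye orientations, so that Cy3 marked the treated RNA of arrays 1 and 3 and Cy5 that of arrays 2 and 4. From which culture an array came is not labelled. Cells with intact *MID2* were not analysed here, *MID2* itself had a blank on every array, so the genotype could not be read from it, and for the untreated RNA of array 4 one label reads *hog1* mutant where its other labels read *mid2*.

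In the yeast wall, GPI proteins are made in the secretory pathway, receive a glycolipid anchor in the endoplasmic reticulum and reach the plasma membrane. Part of them are then cut from the lipid and joined through the anchor remnant to β-1,6-glucan, which forms a mannoprotein layer outside the β-1,3-glucan. When the wall is damaged, the Slt2 MAP kinase and the transcription factor Rlm1 raise the transcription of wall protein genes, and Msn2 and Msn4 drive a general stress response.

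The files gave 1 log ratio per gene and array, taken here as log2 of treated over untreated RNA. The sources used here name neither the logarithm's base nor the numerator, so the direction is a likely one. It was set from 8 genes known to respond to zymolyase, none of them among the 4 described here, and their medians were 1.49, 1.77, 2.35 and 1.75 on arrays 1 to 4. All 8 were above 0 on arrays 1, 3 and 4, and 7 of them on array 2. The exception, *GSC2*, read 1.31, −1.57, 1.57 and 0.07 on arrays 1 to 4, with a mean of 0.34. Ratios of the 3299 genes had medians between −0.37 and −0.02 per array and a median absolute deviation of 0.16 on array 4 against 0.31 to 0.37 on the others. Across genes, which are not independent replicates, opposite orientations gave a Pearson correlation of 0.39 (arrays 1 with 2 and also 3 with 4). For arrays 1 with 4 it was 0.14 and for arrays 2 with 3 it was 0.13. Spearman's rho between opposite orientations was −0.08 to 0.14. Within an orientation Pearson's r was 0.42 and 0.48.

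In the likely direction, all 4 mannoprotein genes were higher in zymolyase-treated *mid2* cells on every array. *CWP1* rose 6.59-fold on average, *SED1* 6.12-fold, *SPI1* 3.30-fold and *CWP2* 1.94-fold. All 4 passed the test (limma on culture means, adjusted p under 0.05 under both possible pairings of the arrays), where 2.76% of the 3299 genes passed upward. Across all genes tested, 6.15% were above 0 on all 4 arrays. The means of the 4 genes had a median of 2.17, against −0.14 for all genes tested. The test had 2 culture means per gene and took nearly all of its spread from all genes, so the intervals of the 4 genes are equally wide on the log2 scale whatever their own SD. After the arrays were scaled to one spread, *SED1* alone of the 4 passed (adjusted p = 0.0133), while *CWP1* (0.0594), *SPI1* (0.0945) and *CWP2* (0.110) had an adjusted p above the threshold and 2 of the 3299 genes passed. When genes with values on at least 3 arrays were tested, *CWP1* and *SED1* passed and *SPI1* (adjusted p = 0.0742) and *CWP2* (adjusted p = 0.1003) did not.

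**Figure D1:**
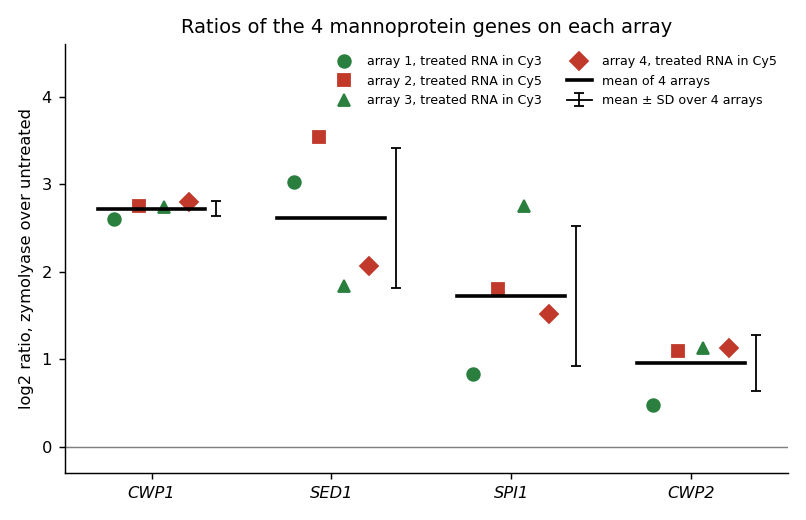
Log2 ratios (vertical axis, zymolyase over untreated) of the 4 genes on each array, with colour for the dye of the treated RNA, a line at the mean of 4 arrays and a bar of ± 1 SD beside it. *CWP1* lies between 2.60 and 2.79 on all arrays, while *SED1* spans 1.83 to 3.53 and *SPI1* 0.83 to 2.75.

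*CWP1* encodes a wall mannoprotein that is found above all at the birth scar of daughter cells. Its log2 ratios were 2.60 on array 1, 2.75 on array 2, 2.74 on array 3 and 2.79 on array 4. The arrays gave nearly the same value, although both arrays with treated RNA in Cy5 lay just above both in Cy3. The mean was 2.72 ± 0.08 (SD over 4 arrays of 2 cultures), or 6.59-fold with a 95% confidence interval of 4.52 to 9.59 (limma, adjusted p = 2.37e-07). This SD was smaller than that of nearly all genes, since only 1.33% of those tested had a smaller one. Of 13 genes with a mean above 2, *CWP1* alone had an SD under 0.2. Both statements hold for the ratios as deposited, without centring of the arrays. Measured from the median of each array, *CWP1* stood at 2.62, 3.12, 2.78 and 2.86 on arrays 1 to 4, which lie farther apart. The interval was not set by the SD of *CWP1*, because the test borrows its spread from all genes (standard error 0.28).

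*SED1* encodes the main wall mannoprotein of stationary phase, which makes resting cells resistant to lytic enzymes. It read 3.02 on array 1, 3.53 on array 2, 1.83 on array 3 and 2.07 on array 4. Arrays 1 and 2 were high and arrays 3 and 4 low, with a gap between these pairs and none between dye orientations. The mean was 2.61 ± 0.80 (SD, 4 arrays), or 6.12-fold with a 95% confidence interval of 4.205 to 8.914 (limma, adjusted p = 2.37e-07). If arrays 1 and 2 came from one culture, the culture means were 3.28 and 1.95, both outside the log2 interval of 2.07 to 3.16. If arrays 1 and 4 did, they were 2.55 and 2.68. Which of these holds cannot be told from the labels. A larger SD than that of *SED1* was found in 6.79% of the genes tested.

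*SPI1* encodes a GPI protein related to Sed1 that is known for its rise in stationary phase and for protection against weak acids. Its log2 ratios were 0.83 on array 1, 1.80 on array 2, 2.75 on array 3 and 1.51 on array 4. The highest and the lowest value both came from arrays with treated RNA in Cy3. The mean was 1.72 ± 0.80 (SD, 4 arrays), or 3.30-fold with a 95% confidence interval of 2.27 to 4.80 (limma, adjusted p = 0.000134). *SPI1* did not pass without array 4 (limma, adjusted p = 0.185), where 5 of the 3299 genes passed in all.

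*CWP2* encodes a small, abundant wall mannoprotein that is known to stabilise the wall and to protect cells at low pH. It read 0.47 on array 1, 1.10 on array 2, 1.12 on array 3 and 1.12 on array 4. Arrays 2, 3 and 4 lay close together, and array 1 lay apart below them. The mean was 0.95 ± 0.32 (SD, 4 arrays), or 1.94-fold with a 95% confidence interval of 1.33 to 2.82 (limma, adjusted p = 0.0174). The call was lost when any single array was left out (adjusted p 0.134 to 0.237), although the mean then stayed between 0.87 and 1.11. It was the weakest call of the 4 genes.

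The arrays differed in spread, so each gene was also ranked among the genes with a value on the same array. *CWP1* ranked 18th of 4692 genes on array 1, 33rd of 3576 on array 2, 15th of 4768 on array 3 and 2nd of 4944 on array 4. *SED1* ranked 11th, 13th, 37th and 15th on arrays 1 to 4. *SPI1* ranked 245th, 70th, 14th and 28th, and *CWP2* 761st, 148th, 94th and 42nd. *CWP1* and *SED1* thus stood among the top 1% of the genes with a value on every array. *CWP2* stood outside the top 1% on arrays 1, 2 and 3, with 16.2% of the genes above it on array 1.

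**Figure D2:**
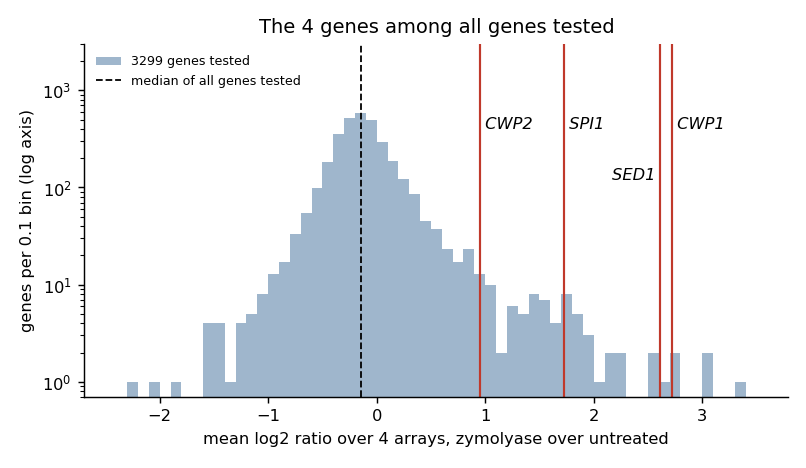
Distribution of the mean log2 ratio over 4 arrays (horizontal axis, zymolyase over untreated) for the 3299 genes tested, as genes per bin on a log axis, with lines at the 4 genes and a dashed line at the median of −0.14. *CWP1* and *SED1* have the 4th and 6th highest mean, *SPI1* the 27th and *CWP2* the 76th.

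The members were also set against each other within each array, which gives 6 pairs. *CWP1* exceeded *CWP2*, its neighbour on the chromosome, by 2.13, 1.65, 1.61 and 1.67 on arrays 1 to 4. The mean difference was 1.77 ± 0.24 (SD, 4 arrays), and its sign was the same on every array. *SED1* exceeded *CWP2* by 1.66 ± 0.97 and *SPI1* exceeded it by 0.77 ± 0.59, each on 4 of 4 arrays. *CWP2* was therefore the lowest of the 4 genes on every array. *CWP1* and *SED1* could not be ordered, since their difference was 0.11 ± 0.84, with *SED1* higher on arrays 1 and 2 and *CWP1* higher on arrays 3 and 4. *CWP1* exceeded *SPI1* by 1.00 ± 0.75, but lay 0.01 below it on array 3. *SED1* exceeded *SPI1* on 3 of 4 arrays by a mean of 0.89 ± 1.39, and lay 0.92 below it on array 3. With 2 cultures the smallest p that an exact two-sided sign-flip test can give is 0.5, so none of these orders can reach a threshold. The exact p was 0.5 for 4 pairs and 1 for *CWP1* with *SED1* and *SED1* with *SPI1*, as the larger value of both pairings.

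**Figure D3:**
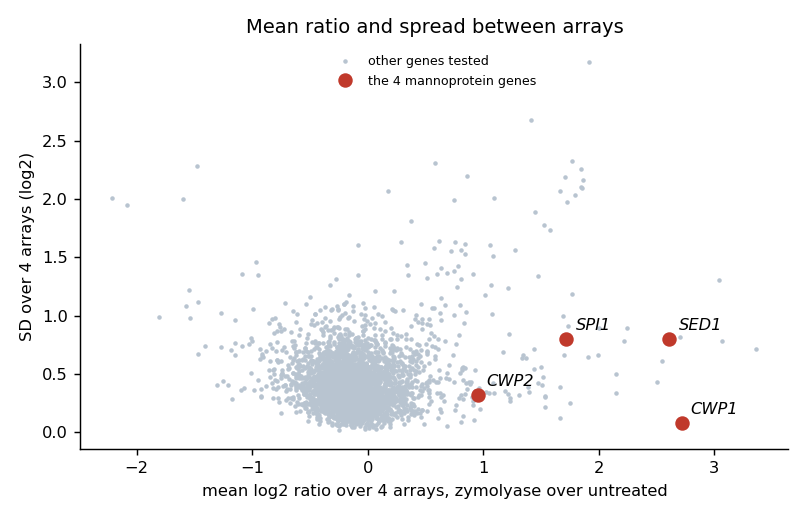
Mean log2 ratio over 4 arrays (horizontal axis) against the SD over these arrays (vertical axis) for the 3299 genes tested, with the 4 mannoprotein genes in red. *CWP1* sits at the lower edge with an SD of 0.08, while *SED1* and *SPI1* share an SD of 0.80 at means of 2.61 and 1.72.

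The 4 genes differed between dye orientations by no more than about the typical size for all genes tested. The half-difference between orientations (treated in Cy5 minus treated in Cy3) was 0.05 for *CWP1*, 0.16 for *CWP2*, 0.19 for *SED1* and −0.07 for *SPI1*. Its median size over all genes tested was 0.19. For *CWP2* the mean was 0.80 with treated RNA in Cy3 and 1.11 in Cy5. These values are not centred, and array 2 (Cy5) had a median of −0.37. Measured from the median of each array, *CWP2* stood at 0.50, 1.47, 1.17 and 1.19 on arrays 1 to 4, and *SED1* at 3.05, 3.90, 1.88 and 2.14. The half-difference between arrays 1 and 2 and arrays 3 and 4 was 0.66 for *SED1* and −0.41 for *SPI1*. For *CWP1* it was −0.05 and for *CWP2* −0.17. When arrays 1 and 4 were set against arrays 2 and 3, the half-difference was −0.07 for *SED1*, −0.55 for *SPI1*, −0.02 for *CWP1* and −0.16 for *CWP2*. *SED1* thus differed mainly along the first split, and *SPI1* along both. Whether culture, hybridisation or shared sequence of the *SED1* and *SPI1* spots plays a part was not tested.

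*CWP2* and *CWP1* lie next to each other in the RefSeq gene order. The nearest genes outside this pair with a value on all arrays, chosen after the members' values were seen, were *UTP11* (0.08 ± 0.66, SD over 4 arrays) and *YJU3* (−0.05 ± 0.36), and neither passed. Beside *SED1* the nearest such genes were *PPH3* (−0.39 ± 0.68) and *PET100* (−0.36 ± 0.35). Beside *SPI1* they were *SPT15* (−0.39 ± 0.40) and *YER152C* (0.02 ± 0.66). None of these 6 neighbours passed the test (limma, adjusted p 0.760 to 0.990). Of all genes tested, 2.76% passed upward and 1.39% downward. At these shares few of any 6 genes would pass, so this count does not set the neighbours apart.

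The genes with the most similar values were found by the root mean square difference of their log2 ratios over the 4 arrays. Closest to *CWP1* was *PIR3*, which encodes a wall protein bound to β-1,3-glucan, at a difference of 0.39, followed by the stress gene *DDR2* (0.50) and the hexose transporter gene *HXT1* (0.61). *PIR3* was also closest to *SED1* (0.72), followed by *CWP1* (0.73) and *HXT1* (0.83). For *SPI1* they were *PRY2*, a gene for a secreted sterol-binding protein (0.46), the MAP kinase gene *SLT2* (0.49) and the metal transporter gene *SMF1* (0.49). For *CWP2* they were *DCS2* (0.18), *PCM1*, which acts in the synthesis of the chitin precursor (0.21), and *BGL2*, a wall glucan transferase gene (0.22). With 4 arrays these distances describe the values and carry no test.

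Other genes for GPI proteins moved in both directions. Of 53 such genes in 4 lists, 35 were tested, of which 8 rose, 6 fell and 21 did not pass, against 2.76% rising and 1.39% falling among all genes tested. After the arrays were centred on their medians, 9 passed upward and 3 downward. The median of the 35 means was 0.13, against −0.14 for all genes tested. The lists were drawn up with earlier results of these data known, and *CRH1*, *PST1* and *NCW2* in them also served to set the direction of the ratios.

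Among the other GPI mannoproteins of the wall, 0 of 11 genes tested rose and 3 fell (limma). The shares over all genes tested were 2.76% rising and 1.39% falling. At 2.76% few of 11 genes would rise, so the count of 0 does not set them apart. At an unadjusted p under 0.05 there were 6, the 3 that fell and *CCW14* (0.70), *TIR2* (0.60) and *TIP1* (−0.61), where 4.94% of all genes tested stood higher and 5.88% lower by that measure. The 3 that fell were *TIR3*, a mannoprotein gene of oxygen-poor growth (−2.08 ± 1.95), and *FIT2* (−1.81 ± 0.99) and *FIT3* (−1.55 ± 1.22), whose products retain siderophore iron in the wall. *TIR3* lost its call without array 1 or array 3, *FIT3* without array 1, 3 or 4, and *FIT2* without array 4 (adjusted p 0.0539 to 0.229). Without array 3 the mean of *TIR3* was −1.07 and that of *FIT3* −0.92. For each of the 3, arrays 1 and 3 (Cy3) gave lower values than arrays 2 and 4 (Cy5), and *TIR3* read −2.70, −0.68, −4.56 and −0.39 on arrays 1 to 4. The half-difference between orientations was 1.55 for *TIR3*, 0.84 for *FIT2* and 0.98 for *FIT3*, and the part of the dye was not tested. With the 4 arrays as replicates and no dye term, *TIR3* (adjusted p = 0.155) and *FIT3* (adjusted p = 0.110) did not pass. *CCW12* and *CCW14*, chosen after their values were seen as genes for abundant structural mannoproteins like the 4 described here, did not pass. *CCW12* read −0.08, 1.08, 0.02 and 0.74 on arrays 1 to 4, which differed in sign. *CCW14* read 0.02, 1.02, 0.88 and 0.89, above 0 on every array and lowest on array 1.

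Among GPI enzymes, 4 of 12 genes rose and 2 fell, where 2.76% of all genes tested rose and 1.39% fell. *YPS3* (2.22 ± 0.78) and *YPS1* (1.17 ± 0.69) encode cell surface aspartyl proteases, *CRH1* (1.47 ± 0.42) a chitin-glucan transferase and *DFG5* (0.89 ± 0.43) a protein that attaches GPI proteins to the wall. The 2 that fell, *CRR1* and *PLB2*, differed in sign between arrays. Of 4 adhesin genes 0 rose and 1 fell, namely *AGA1*, which also differed in sign between arrays, and 2 had an unadjusted p under 0.05. By that unadjusted measure 4.94% of all genes tested stood higher and 5.88% lower. At a share of 2.76% rising, the count of 0 does not set the adhesin genes apart. In the list of further GPI proteins 4 of 8 rose, which were *NFG1* (2.71 ± 0.82), *NCW2* (2.15 ± 0.50), *PST1* (1.54 ± 0.31) and *TOH1* (0.97 ± 0.20), and 0 fell. *NFG1*, *YPS3* and *NCW2* thus had means in the range of *CWP1*, *SED1* and *SPI1*. Without array 4, all 8 of the GPI genes that rose lost their call in a fit where 5 genes passed in all, among them *TIR3*. Their means without array 4 ran from 0.99 (*TOH1*) to 2.78 (*NFG1*), against 0.89 (*DFG5*) to 2.71 (*NFG1*) with it. *DFG5* and *TOH1* lost their call without any one of the 4 arrays, and *YPS1* also without array 2 (adjusted p = 0.0739).

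**Figure D4:**
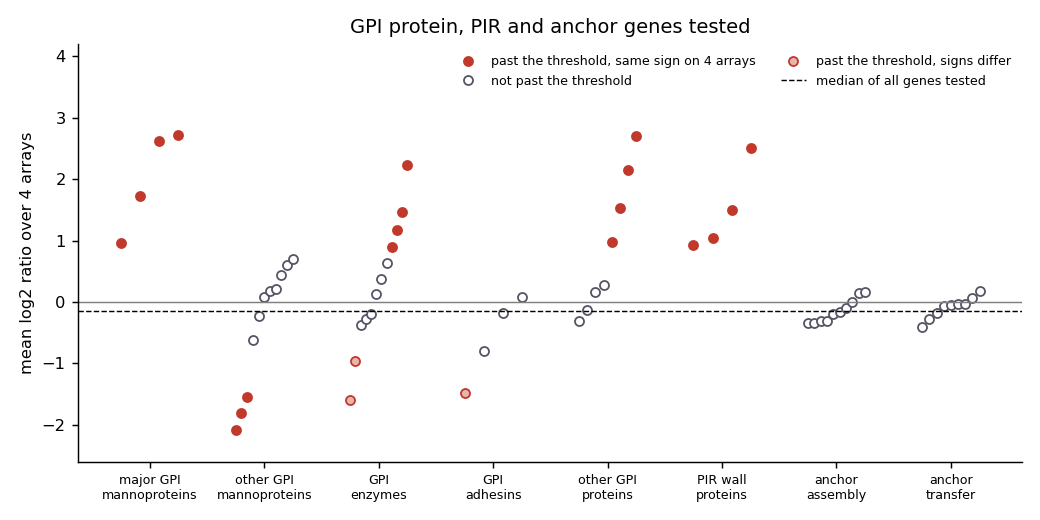
Mean log2 ratio over 4 arrays (vertical axis) of each gene tested, by list (horizontal axis), with filled points for genes past the threshold with the same sign on 4 arrays, pale points for those whose signs differ and open points for the rest. All 4 major mannoproteins and all 4 PIR genes tested are filled and above 0, while all 19 anchor genes are open and lie between −0.40 and 0.18. Of all genes tested, 2.76% passed upward and 1.39% downward.

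PIR proteins are wall mannoproteins that are bound directly to β-1,3-glucan and carry no GPI anchor. All 4 of the 5 PIR genes that were tested rose, namely *PIR3* (2.51 ± 0.43), *HSP150* (1.4998 ± 0.56), *CIS3* (1.05 ± 0.34) and *PIR1* (0.93 ± 0.36), and *PIR5* had no value on any array. Their median was 1.27, and 2.76% of all genes tested rose. None of the 4 passed without array 4 (adjusted p 0.0539 to 0.168), *CIS3* did not pass without array 1 or array 2 and *PIR1* without any one array. *PIR3* was one of the genes that set the direction of the ratios.

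Genes for the machinery that builds and attaches the GPI anchor gave values near the median of all genes. Of 19 genes tested out of 29, 0 passed (limma, and 0 at an unadjusted p under 0.05), and 0 passed in any of the alternatives run. Among all genes tested, 2.76% rose and 1.39% fell, and 4.94% stood higher and 5.88% lower at an unadjusted p under 0.05. At these shares few of 19 genes would pass, so the count of 0 does not set the anchor genes apart. The 10 tested genes for anchor assembly lay between −0.34 and 0.16, with *LAS21* (−0.34 ± 0.47) and *GPI15* (−0.33 ± 0.76) farthest from 0. The 9 tested genes for anchor transfer and remodelling lay between −0.40 and 0.18, with *CWH43* (−0.40 ± 0.28) and *PER1* (−0.28 ± 0.24) farthest from 0. The median of the 19 means was −0.09.

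Of 7 tested genes for wall signalling and for transcription factors of wall and stress genes, 2 rose and 0 fell. Among all genes tested, 2.76% rose and 1.39% fell. *KDX1*, which encodes a paralog of Slt2, stood at 3.04 ± 1.31 and *SLT2* at 2.00 ± 0.67, and both were among the genes that set the direction. Both lost their call without array 4 (adjusted p = 0.0539). The list held 6 genes for transcription factors or their subunits, described here after their values were seen. Of these, *SWI4* read −0.13, −1.10, −0.17 and −0.52 on arrays 1 to 4, below 0 on each, and did not pass. *HAA1* had a mean of −0.22 ± 0.71, differed in sign and did not pass. The other 4 had blanks and were not tested. *SWI6* read 0.11 and −0.35 on arrays 3 and 4. *RLM1* read 1.10, 1.19 and 0.46 on arrays 1, 3 and 4, *MSN2* read 0.71, 0.31 and 0.28, and *MSN4* read 0.67, 0.62 and 0.61. These last 3 genes were above 0 on arrays 1, 3 and 4 and blank on array 2, the array with the fewest values. The share of all genes above 0 on arrays 1, 3 and 4 was not counted, so no rise is read from this. Of the untested kinase genes of the pathway, *BCK1* read −0.70 and −0.45 on arrays 3 and 4, *MKK2* read −0.34, −0.46 and 0.18 on arrays 1, 3 and 4, and *MKK1* read −0.24, 0.05 and 0.19 on arrays 2, 3 and 4.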

How the data were processed

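The authors' deposited table holds 1 log ratio per ORF and array, taken as log2. The sources used here do not give its normalization, logarithm base, numerator, spot brightness or genome build. The table had 6209 rows, of which 2 were control rows. Of 6207 ORF rows, 5654 matched a RefSeq locus tag (R64, used for names and gene order only), 57 a synonym of 1 gene and 496 neither. Rows of 1 gene were averaged for 34 genes, which left 6172. The 4 arrays had values for 57.9% to 80.1% of these, and 3299 had one on all 4.

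All 4 pairs of arrays of opposite orientation had a Pearson correlation above 0, so they were taken as already turned the same way. Spearman's rho was below 0 in 2 of these pairs (−0.08 and −0.04). The sign was set by 8 anchor genes. Under each of the 2 pairings that put opposite orientations in 1 culture, arrays of a culture were averaged and the 2 culture means tested against 0 with lmFit and eBayes (limma 3.58.1, R 4.3.3). Both pairings had to give a Benjamini-Hochberg adjusted p under 0.05 for a gene to pass, and of each gene's results the larger p and the larger standard error are reported. The standard error was 0.28 for most genes (at most 0.42), because the prior was unlimited under the pairing of arrays 1 with 2. The procedure was tested on simulated data. Python 3.11.15 was used for summaries.

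The members, lists and tests were chosen with earlier results of these data known. In each list, up to 5 genes that passed with 1 sign on all arrays and had the largest means were named, or the 2 largest means where none passed. For each member the 3 nearest genes were named. Alternatives were centring, scaling, values on at least 3 arrays, either pairing alone, a dye term, arrays as replicates, a robust prior and leaving out each array. The number of arrays limits the precision. No sequences are shown.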

Additional observations from a re-analysis of the deposited data

Results flagged for a closer look

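In 25 named genes, Dixon's test at the 95% level asked whether the highest or the lowest array stood off from the rest by too large a share of the gene's range. It did in 2 genes, where chance flags about 1.25 of 25 independent groups, and the arrays here are dye swaps of 2 cultures. *CWP2* read 0.47 on array 1, with a gap of 0.960 of its range. *PST1*, which encodes another GPI protein, read 1.07 on array 1, against 1.65 to 1.73 on the others, a gap of 0.889. The cause was not tested. Array 1 also gave the lowest of the 4 values of *CWP1* and *SPI1*, but not of *SED1*.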

How the results depend on the processing

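Precision is limited by the number of arrays, the unstated culture of each and spot brightness, which is not known here. All 12 alternatives were listed with earlier results known, and every value of the 4 members stayed above 0. *SED1* kept its call in all 12 alternatives (2.34 to 2.86, adjusted p at most 0.0319). With centring and scaling to one spread, *CWP1* (3.02, adjusted p = 0.0594), *CWP2* (1.16, adjusted p = 0.110) and *SPI1* (1.91, adjusted p = 0.0945) did not pass, and 2 genes in all did (2 up, 0 down). With values on at least 3 arrays, *CWP2* (0.95, adjusted p = 0.1003) and *SPI1* (1.72, adjusted p = 0.0742) did not pass, and 47 genes did (44 up, 3 down). Leaving out single arrays gave 0.87 to 1.11 for *CWP2* and 1.45 to 1.93 for *SPI1*, and 5 to 101 genes past the threshold, against 137 (91 up, 46 down). Arrays 1 with 4 as the only pairing gave 306 genes (156 up, 150 down), and 4 arrays without a dye term 65 (53 up, 12 down).

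Of the other GPI genes 14 passed. This count was 0 with scaling, 8 with at least 3 arrays (5 up, 3 down), 7 without a dye term (6 up, 1 down) and 1 to 9 when single arrays were left out, with the lowest count without array 4. *GPI15* ranged from −0.62 to 0.07 when single arrays were left out, and only the value without array 2 (0.068) was above 0. *CWP1* minus *SED1* ranged from −0.16 to 0.40, below 0 without array 3 or array 4. Of 252 values of named list genes, 191 stayed on their side of the threshold, 60 lost their call and 1 changed sign. The cause of these changes was not tested.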
